A study of Homo sapiens with 10 samples.

Results

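The nuclear-encoded subunits of respiratory complex I were examined as 1 gene module in hTERT RPE-1 cells treated with an siRNA against NEMP1. Genes were taken by name, as all entries whose symbol begins with NDUFA, NDUFAB, NDUFB, NDUFC, NDUFS or NDUFV followed only by digits and whose mean level over the 10 libraries was at least 1 CPM (counts per 1000000). Of 40664 genes listed, 36 matched the name and 33 met the level. The 3 left out were NDUFA11, NDUFA3 and NDUFA6, with means of 0.870, 0.638 and 0.442 CPM, and the lowest gene kept was NDUFB1 at 18.7 CPM. All 33 passed the filter on low counts that left 13990 genes for testing. NDUFS1 and NDUFB10 were not analysed here.

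Complex I, the NADH:ubiquinone oxidoreductase, is a main entry point of the mitochondrial respiratory chain. It passes electrons from NADH through a flavin and a chain of iron-sulfur clusters to ubiquinone and pumps protons across the inner membrane. Its matrix arm consists of the N module, where NADH is oxidised, and the Q module, where ubiquinone is reduced. Its membrane arm has a proximal and a distal part built around subunits of the mitochondrial genome, and every other subunit is encoded in the nucleus and imported. The retinal pigment epithelium of the eye is known for its reliance on oxidative metabolism.

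The study crossed the NEMP1 siRNA with the stiffness of the culture substrate. The groups were siNemp1-treated cells at 120 kPa (3 libraries), control cells at 120 kPa (3 libraries), siNemp1-treated cells at 10 kPa (2 libraries) and control cells at 10 kPa (2 libraries). All 10 libraries came from hTERT RPE-1, a single human line derived from retinal pigment epithelium and immortalised with telomerase. The labels do not say what the control cells received, and they do not say whether replicates were separate cultures, so the p-values given here cover the spread among the sequenced libraries, which may be technical. NEMP1 encodes a protein of the inner nuclear membrane.

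Estimated counts summed to between 17.9 and 23.8 M per library (M, 1000000). NEMP1, the targeted gene, was at 7.52, 6.70 and 4.11 CPM in siNemp1 cells at 120 kPa, against 18.3, 14.0 and 14.1 CPM in control cells at 120 kPa. It was at 8.22 and 7.63 CPM in siNemp1 cells at 10 kPa, against 14.1 and 17.3 CPM in control cells at 10 kPa, so it was lower in every siNemp1 library. Of the markers of retinal pigment epithelium, BEST1 (at least 53.8 CPM), MITF (at least 85.1 CPM) and OTX2 (at least 18.8 CPM) were present in all 10 libraries. RPE65, RLBP1 and TYR, which define the differentiated epithelium, were at most 0.0954, 0.0861 and 0.630 CPM. PMEL was at 1.59 to 3.67 CPM. Of epithelial markers, KRT8 was at 793 to 1215 CPM and KRT18 at 500 to 790 CPM, while CDH1 and EPCAM were at most 0.0548 and 0.164 CPM. Of mesenchymal markers, VIM (1684 to 3039 CPM), THY1 (268 to 846 CPM), CDH2 (114 to 149 CPM), PDGFRB (37.7 to 85.6 CPM) and COL1A1 (3.83 to 8.35 CPM) were present in every library. CD68 was at 516 to 1167 CPM, PTPRC and PECAM1 were at most 1.801 and 0.951 CPM, and CDH5 was at 0. The part of these markers in the results was not tested. Control replicate 3 at 120 kPa stood apart from the other control libraries in the subunit genes.

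The 33 genes comprised 8 of the N module, 6 of the Q module, 7 of the proximal membrane arm, 11 of the distal membrane arm and NDUFA4. NDUFA4 was first described with complex I and is now counted with cytochrome c oxidase. Among the 33 were 6 core subunits, those that carry the chemistry and have bacterial counterparts, such as NDUFV1, NDUFV2 and NDUFS8. Beside these and NDUFA4, 26 were accessory subunits of complex I. NDUFS8, a Q module subunit that holds iron-sulfur clusters, had the highest mean level. It was at 259, 278 and 311 CPM in siNemp1 cells at 120 kPa, 211, 253 and 308 CPM in control cells at 120 kPa, 248 and 262 CPM in siNemp1 cells at 10 kPa, and 237 CPM in both control libraries at 10 kPa. Its groups overlapped at 120 kPa and did not at 10 kPa.

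NDUFB1, a small subunit of the distal membrane arm, had the lowest mean level. It was at 20.8, 22.5 and 27.6 CPM in siNemp1 cells at 120 kPa, 15.3, 15.9 and 22.7 CPM in control cells at 120 kPa, 15.6 and 15.3 CPM in siNemp1 cells at 10 kPa, and 15.6 and 15.2 CPM in control cells at 10 kPa. The 3 siNemp1 libraries at 120 kPa and control replicate 3 at 120 kPa were above the other 6 libraries, which hardly differed. Set per kilobase of transcript, mean levels ran from 329 CPM per kilobase for NDUFS8, 274 for NDUFB8 and 271 for NDUFS5 to 13.8 for NDUFV3 and 8.42 for NDUFA9. These rest on 1 principal GENCODE transcript for each gene, which for NDUFA9 is 8363 bases long.

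The transcripts were short. Their median length was 930 bases, against 2878 bases over tested genes with a length, and 25 of 33 lay in the shortest length class (at most 1546 bases, 2766 genes). This is given here because changes between these libraries moved with transcript length across all genes.

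Promoters of nuclear respiratory genes are known to carry sites of NRF1, of ETS factors such as GABP, and of YY1, and short windows around such letters are shown for that reason. Promoter windows of 300 bases (250 before to 50 after the start, RefSeq, GRCh38.p14) were found for 27 of the 33 genes. Exact matches were sought on both strands. AAGATGGC, the YY1 core, lay in 5 of 27 subunit genes (18.5%), against 3.52% of all 27305 genes with a window. GCATGCGC, the NRF1 core, lay in 5 of 27 (18.5%), against 3.68% of all genes. CCGGAAG, an ETS core, lay in 4 of 27 (14.8%), against 12.2% of all genes. No test was made of these shares, and a match is a run of letters and not a shown site.

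The windows below run 5′ to 3′ on the gene's strand with the matched letters in capitals. The YY1 matches begin 11 to 22 bases after the start in all 5 genes and are on the gene's strand. The ETS matches begin 10 to 102 bases before the start. The NRF1 matches begin 2 to 159 bases before the start, and in NDUFA8 and NDUFB4 a match on the opposite strand overlaps the one shown. NDUFS3 holds a further ETS match, not shown, on the opposite strand.
NDUFA7, YY1 core, chr19:8321343-8321372, minus strand: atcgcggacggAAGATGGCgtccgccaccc
NDUFA9, YY1 core, chr12:4649113-4649142, plus strand: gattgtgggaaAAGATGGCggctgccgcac
NDUFS4, YY1 core, chr5:53560649-53560678, plus strand: ttgcctgcagcAAGATGGCggcggtgtcaa
NDUFB8, YY1 core, chr10:100529836-100529865, minus strand: tgaagaaggtgAAGATGGCggtggccaggg
NDUFS7, YY1 core, chr19:1383913-1383942, plus strand: aggccgaggccAAGATGGCggtgctgtcag
NDUFB7, ETS core, chr19:14572073-14572102, minus strand: tgcctaaatgacCCGGAAGctgtgtctgac
NDUFA13, ETS core, chr19:19516203-19516232, plus strand: ttccgcccgggaCCGGAAGtgtgggatact
NDUFA1, ETS core on the opposite strand, chrX:119871773-119871802, plus strand: attccgtcgcttCTTCCGGagccgtacgtg
NDUFS3, ETS core, chr11:47578979-47579008, plus strand: ctccacgtccgcCCGGAAGaagatctgctg
NDUFS7, NRF1 core, chr19:1383823-1383852, plus strand: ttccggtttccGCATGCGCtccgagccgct
NDUFA8, NRF1 core, chr9:122159763-122159792, minus strand: ttgccggatgcGCATGCGCaggcgccgtgt
NDUFB4, NRF1 core, chr3:120596168-120596197, plus strand: gagcacttcgcGCATGCGCatatcaccgag
NDUFS6, NRF1 core on the opposite strand, chr5:1801350-1801379, plus strand: ccagaagccgtGCGCATGCgttagcgctaa
NDUFA5, NRF1 core on the opposite strand, chr7:123557958-123557987, minus strand: gtatgcccatcGCGCATGCgtcaatttttc

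The first comparison asked how the subunit genes differed between siNemp1 and control cells on the stiff substrate. The main fit, without a block, called 0 of 33 and 0% of all tested genes (edgeR quasi-likelihood test, adjusted p under 0.05). With the replicate number as a block, the same test called 13 of 33 higher and 0 lower. Of all tested genes the blocked fit called 8.75% in either direction, 6.24% higher and 2.51% lower. Counts by module below are those of the blocked fit. The median log2 change with the block was 0.35 over the 33 genes, against 0.01 over all tested genes, and 30 of 33 changes were positive. Without the block 15 of 33 and 2413 of 13990 genes had an unadjusted p under 0.05 in edgeR. DESeq2 without the block called 4 of 33, all higher (2.73% of its genes in either direction, 1.94% higher). Fitted alone without the block, the 120 kPa libraries gave 0 calls of 33 (0% of genes), with NDUFA7 at an adjusted p of 0.397 (edgeR). The common dispersion there was 0.0525, against 0.0387 in the unblocked fit of all 10 libraries. The block is given beside the unblocked fit because same-numbered libraries at 120 kPa deviated together. This was seen in these same data, and the labels do not say what a replicate number stands for.

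The 13 calls depended on the second pair. Without replicate 2 of both groups at 120 kPa the blocked fit called 0 of 33 (0.0144% of genes), without replicate 1 it called 7 (11.2%) and without replicate 3 it called 14 (5.49%). The median log2 change without replicate 2 was 0.33, and NDUFA7 was at 0.58 (edgeR, adjusted p = 0.0715). In bulk RNA, more subunit mRNA per cell and a different mixture of cells cannot be told apart.

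**Figure D1:**
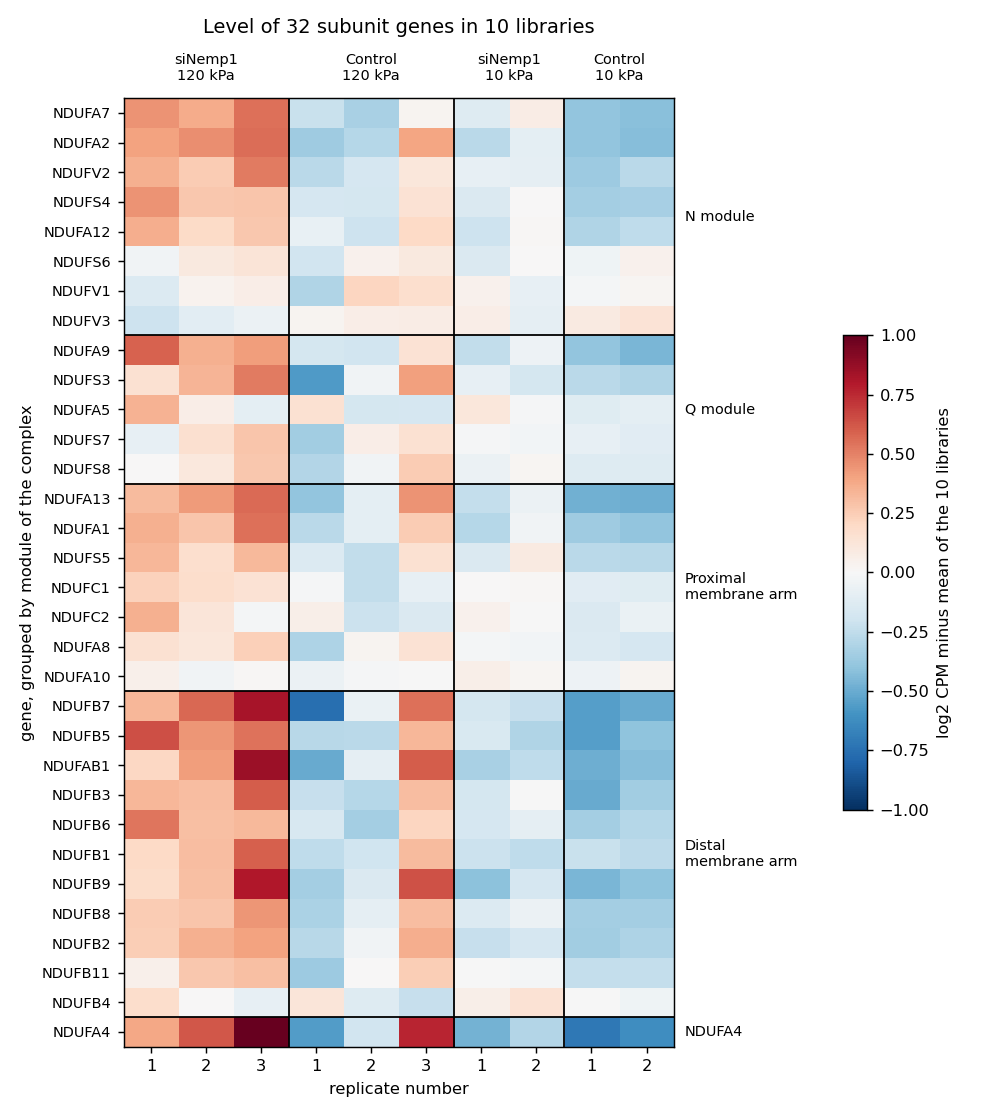
Heat map of 32 of the 33 subunit genes (vertical axis, grouped by module and ordered within it by change at 120 kPa) in the 10 libraries (horizontal axis, by group and replicate number), coloured by log2 CPM minus the mean of the 10 libraries. The siNemp1 libraries at 120 kPa and control replicate 3 at 120 kPa are high for most genes, the control libraries at 10 kPa are low, and NDUFA10 varies little.

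In the N module 4 of 8 genes rose with the block and the median log2 change was 0.35. NDUFA7, an accessory subunit of the matrix arm, was at 64.1, 60.5 and 68.7 CPM in siNemp1 cells at 120 kPa, against 40.2, 37.4 and 47.8 CPM in control cells at 120 kPa. The groups did not overlap, and control replicate 3 was the highest control. The log2 change was 0.63 ± 0.10 (SE) with the block, adjusted p = 0.00833, and 0.62 ± 0.12 without it, adjusted p = 0.0593 (edgeR), the smallest of the 33 in both fits. NDUFA7 overlaps RPS28 on the other strand, and the sources used here do not say whether counting used strand. RPS28, named for this overlap after its values were seen, averaged 302 ± 5.61 CPM in siNemp1 cells and 266 ± 10.0 CPM in control cells at 120 kPa (SD, n = 3 each), a log2 ratio of means of 0.18.

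NDUFV2, the core subunit that holds an iron-sulfur cluster beside the flavin, was at 139, 130 and 156 CPM in siNemp1 cells at 120 kPa, against 90.6, 96.8 and 118 CPM in control cells at 120 kPa. All siNemp1 libraries were above all controls. It rose by 0.49 ± 0.09 on the log2 scale with the block (edgeR, adjusted p = 0.0114), and was 0.48 ± 0.12 without it (adjusted p = 0.0936). NDUFS4, an accessory subunit whose loss causes Leigh syndrome, was at 83.7, 73.9 and 74.3 CPM in siNemp1 cells at 120 kPa, against 54.6, 54.2 and 67.6 CPM in control cells at 120 kPa. Its groups did not overlap either, with a change of 0.40 ± 0.11 (blocked edgeR, adjusted p = 0.0474). NDUFA2, a thioredoxin-like accessory subunit, rose by 0.56 ± 0.12. The other 4 were not called, and NDUFV1, the core subunit that binds NADH and the flavin, was at −0.05 ± 0.12 and NDUFV3 at −0.18 ± 0.09. NDUFV3 was the only one of the 33 genes whose siNemp1 libraries at 120 kPa were all below the controls (55.8 to 61.6 CPM against 65.4 to 67.7 CPM), where 6.95% of tested genes were.

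In the Q module 1 of 6 genes rose with the block and the median log2 change was 0.16. That gene was NDUFA9, an accessory subunit at the junction of the matrix and membrane arms. It was at 103, 87.6 and 91.3 CPM in siNemp1 cells at 120 kPa, against 60.6, 59.9 and 75.7 CPM in control cells at 120 kPa, with no overlap. The change was 0.53 ± 0.11 with the block (edgeR, adjusted p = 0.0198) and 0.52 ± 0.12 without it (adjusted p = 0.0834). Core subunits of this module that were not called include NDUFS3 at 0.39 ± 0.14, NDUFS7 at 0.16 ± 0.10 and NDUFS8 at 0.15 ± 0.09. Of all core subunits 1 of 6 was called with a median of 0.15, and of accessory subunits without NDUFA4, 11 of 26 with a median of 0.36; the difference between the classes was not tested.

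In the proximal membrane arm 2 of 7 genes rose with the block, with a median log2 change of 0.30. NDUFA13, also known as GRIM-19, was at 241, 260 and 287 CPM in siNemp1 cells at 120 kPa, against 147, 181 and 265 CPM in control cells at 120 kPa. Control replicate 3 lay within the siNemp1 range, and the change was 0.45 ± 0.11 with the block (edgeR, adjusted p = 0.0372) and 0.41 ± 0.18 without it (adjusted p = 0.290). NDUFA1, a small X-linked subunit, rose by 0.43 ± 0.10. NDUFS5, a subunit on the intermembrane side, was at 185, 165 and 184 CPM in siNemp1 cells at 120 kPa, against 134, 124 and 163 CPM in control cells at 120 kPa. Its groups came close without overlapping and its change of 0.35 ± 0.10 did not pass (blocked edgeR, adjusted p = 0.0619). NDUFA10, which resembles nucleoside kinases, was at 0.03 ± 0.08.

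The distal membrane arm had the highest module median, 0.41, and 5 of 11 genes rose with the block. NDUFB5 was at 38.7, 33.5 and 36.03 CPM in siNemp1 cells at 120 kPa, against 20.5, 20.5 and 31.3 CPM in control cells at 120 kPa. The groups did not overlap, although control replicate 3 was close to the siNemp1 libraries. The change was 0.61 ± 0.14 with the block (edgeR, adjusted p = 0.0252) and 0.58 ± 0.17 without it (adjusted p = 0.125).

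NDUFB3 was at 30.7, 30.1 and 37.1 CPM in siNemp1 cells at 120 kPa, against 20.8, 20.0 and 30.2 CPM in control cells at 120 kPa. NDUFAB1, the mitochondrial acyl carrier protein, was at 60.1, 69.5 and 93.8 CPM in siNemp1 cells at 120 kPa, against 36.6, 48.6 and 79.0 CPM in control cells at 120 kPa. In both genes control replicate 3 fell among the siNemp1 libraries, and both rose with the block, by 0.48 ± 0.12 and 0.49 ± 0.11 on the log2 scale. NDUFB7, on the intermembrane side, rose by 0.65 ± 0.16 with the block and NDUFB9 by 0.38 ± 0.10. In these too, control replicate 3 fell among the siNemp1 libraries. For NDUFB7 it was at 70.4 CPM, against 60.7 to 85.1 CPM in siNemp1 cells at 120 kPa. For NDUFB9 it was at 112 CPM, against 81.8 to 126 CPM. The change of NDUFB1 was 0.41 ± 0.12 and did not pass (blocked edgeR, adjusted p = 0.0523), and the smallest in the module was 0.11 ± 0.10, for NDUFB4.

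NDUFA4 had the largest change in the blocked fit, while NDUFA7 had the largest without the block. NDUFA4 was at 99.8, 117 and 162 CPM in siNemp1 cells at 120 kPa, against 51.6, 66.6 and 129 CPM in control cells at 120 kPa. Control replicate 3 was above 2 of the 3 siNemp1 libraries, and the highest control was 2.504 times the lowest. The log2 change was 0.69 ± 0.12 with the block (edgeR, adjusted p = 0.0101) and 0.61 ± 0.30 without it (adjusted p = 0.320). Without control replicate 3 the change in the fit without a block was 1.08 (adjusted p = 0.0300).

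**Figure D2:**
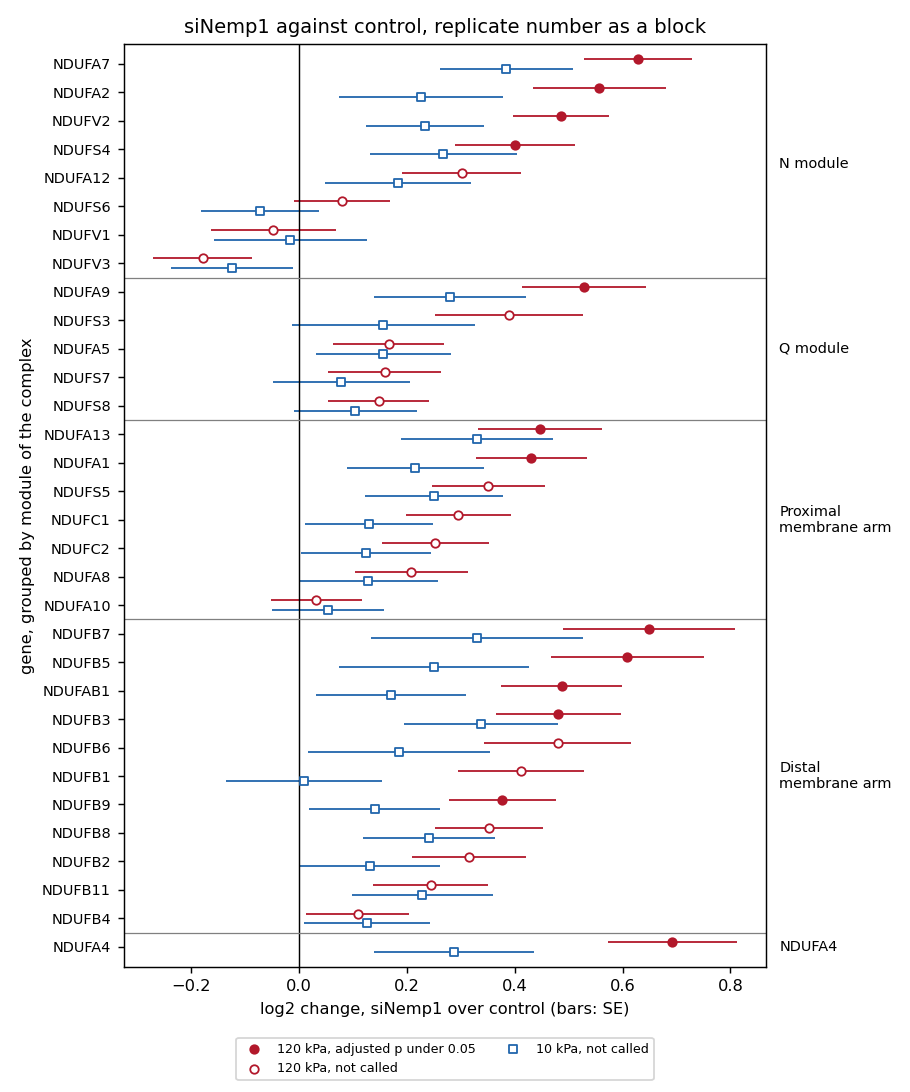
Log2 change of siNemp1 over control (horizontal axis, bars show the standard error) for 32 of the 33 genes (vertical axis, by module) in the fit with the replicate block, at 120 kPa (red circles, filled where adjusted p was under 0.05) and at 10 kPa (blue squares). Filled circles mark 13 genes at 120 kPa, and no gene was called at 10 kPa, where 29 of 32 points lie above 0.

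Sample by sample, the difference was carried unequally by the 3 pairs at 120 kPa. The siNemp1 library was above its same-numbered control for 32 of 33 genes in pair 1, 29 in pair 2 and 30 in pair 3, and for 29 genes in all 3. The median log2 ratio was 0.52 in pair 1, 0.40 in pair 2 and 0.13 in pair 3. Between the 3 siNemp1 libraries the highest was a median of 1.18 times the lowest, against 1.43 times between the 3 control libraries, where 12 genes differed by more than 1.5 times. Control replicate 3 was the highest control for 27 of 33 genes. Without control replicate 3 the fit without a block called 15 of 33 (4.19% of genes) and the median log2 change was 0.49. Without overlap between groups, 10 of 33 genes were higher in siNemp1 cells, against 10.9% of tested genes, and 1 was lower.

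The change of the subunit genes ran with a trend over all genes. At 120 kPa with the block, 11.6% of the shortest length class were called higher and 0.976% lower, with a median log2 change of 0.20. Of the longest length class (at least 5192 bases) 1.77% were called higher and 6% lower, with a median of −0.14. On the log2 scale the shortest class stood at a median of 0.14, 0.15 and 0.22 above its 10-library mean in the siNemp1 libraries at 120 kPa, against −0.12, −0.05 and 0.11 in the controls at 120 kPa, so that control replicate 3 again resembled the siNemp1 libraries.

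With each library's trends on length and GC content removed, the blocked fit called 5 of 33 higher, NDUFA2, NDUFA4, NDUFA7, NDUFA9 and NDUFB7 (15.2%, against 7.57% of all genes in either direction and 4.8% higher). The median change of the 33 genes was then 0.18, against 0.01 over all genes. Whether length or a property that goes with it changed the counts was not tested.

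**Figure D3:**
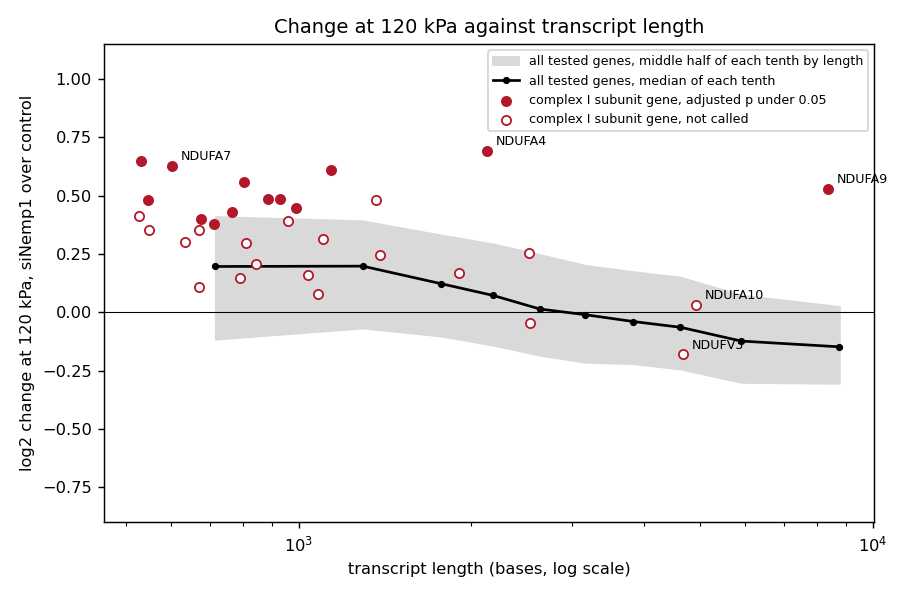
Log2 change of siNemp1 over control at 120 kPa in the blocked fit (vertical axis) against transcript length in bases (horizontal axis, log scale). Red circles are 32 of the 33 subunit genes (filled where adjusted p was under 0.05), the black line joins the medians of all tested genes in bins by length, and the grey band runs from the lower to the upper quartile of each bin. The line falls with length, and NDUFA9 and NDUFA4 lie far above it.

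The second comparison made the same contrast on the soft substrate. Changes had the same sign for most genes and were smaller, and no gene passed. Of 33 subunit genes 30 had a positive log2 change, with a median of 0.17, against 0.00 over all tested genes. The edgeR fit called 0 of 33 without the block (0% of genes) and 0 with it (0.0286% of genes), and DESeq2 called 0 (0.0722% of its genes). Without and with the block, 1 and 3 of 33 had an unadjusted p under 0.05, for which the share over all genes is not given here. With 2 libraries a group, 26 of 33 did not overlap and were higher in siNemp1 cells, against 28.8% of tested genes, and 1, NDUFV3, was lower, against 28.5%.

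NDUFA7 again had the smallest p. It was at 42.9 and 49.4 CPM in siNemp1 cells at 10 kPa, against 35.6 and 35.1 CPM in control cells at 10 kPa, without overlap. The log2 change was 0.38 ± 0.15 without the block (edgeR, adjusted p = 0.803) and 0.38 ± 0.12 with it (adjusted p = 0.388). NDUFB3 was at 21.6 and 24.3 CPM in siNemp1 cells at 10 kPa, against 17.2 and 19.1 CPM in control cells at 10 kPa. NDUFA13 was at 164 and 186 CPM in siNemp1 cells at 10 kPa, against 139 and 138 CPM in control cells at 10 kPa. Both had every siNemp1 library above every control, with log2 changes of 0.34 ± 0.14 and 0.33 ± 0.14 in the blocked fit.

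NDUFA9 was at 57.6 and 66.2 CPM in siNemp1 cells at 10 kPa, against 52.1 and 49.8 CPM in control cells at 10 kPa. NDUFV2 was at 103 CPM in both siNemp1 libraries at 10 kPa, against 84.6 and 90.3 CPM in control cells at 10 kPa. NDUFS4 was at 55.3 and 61.5 CPM in siNemp1 cells at 10 kPa, against 48.3 and 48.7 CPM in control cells at 10 kPa. In these 3 genes the groups did not overlap. The gap between groups was smaller than the distance between the siNemp1 libraries for NDUFA9, and larger for NDUFV2.

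NDUFS5 was at 133 and 156 CPM in siNemp1 cells at 10 kPa, against 122 and 121 CPM in control cells at 10 kPa. NDUFA4 was at 54.9 and 62.2 CPM in siNemp1 cells at 10 kPa, against 46.3 and 49.4 CPM in control cells at 10 kPa. In both, replicate 2 was the higher siNemp1 library and stood clear of the controls. Module medians were 0.21 for the N module, 0.13 for the Q module, 0.13 for the proximal and 0.19 for the distal membrane arm.

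The result depended on which libraries set the spread. A fit of the 4 libraries at 10 kPa alone called 11 of 33 higher, against 17.3% of its genes in either direction and 8.1% higher. These were NDUFA13, NDUFA4, NDUFA7, NDUFA9, NDUFB11, NDUFB3, NDUFB7, NDUFB8, NDUFS4, NDUFS5 and NDUFV2. Its common dispersion was 0.00423, against 0.0387 in the fit of all 10 libraries, and it had 2 residual degrees of freedom.

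The difference between the siNemp1 effects at 120 and at 10 kPa was tested directly. The effect at 120 kPa was the larger for 28 of 33 genes, by a median of 0.13 on the log2 scale, against 0.03 over all tested genes, and 0.28 without control replicate 3 at 120 kPa. None passed in edgeR, with 0 at an unadjusted p under 0.05 with or without the block (0.00715% of all genes called without it and 0.0286% with it), and DESeq2 called 0 (0.0127%). The largest difference was 0.39 ± 0.28 without the block, for NDUFB1, followed in order of p by NDUFV2 at 0.25 ± 0.19 and NDUFA7 at 0.24 ± 0.19. With the block NDUFB1 and NDUFA4 had the largest, both 0.40 ± 0.19, with an edgeR adjusted p of 1 after rounding. Errors of this size also leave room for effects that do not differ between stiffnesses and for effects that differ by more than their median.

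Averaged over both stiffnesses, NDUFA7 was the only subunit gene called without the block, at 0.50 ± 0.10 (edgeR, adjusted p = 0.0477), where 1.29% of genes were called. It lost the call under other scalings and when any of 7 single libraries was left out. With the block 14 of 33 rose and 0 fell (10.8% of genes in either direction, 6.58% higher). They were the 13 genes of the 120 kPa contrast without NDUFB9, together with NDUFB8 and NDUFS5. The block with length and GC trends removed left 5 (8.13% of genes in either direction), NDUFA13, NDUFA7, NDUFA9, NDUFB11 and NDUFB7, and DESeq2 called 5 (4.22%).

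Stiffness was compared within each treatment. In siNemp1 cells most subunit genes were higher at 120 than at 10 kPa, with a median log2 change of 0.42, against 0.02 over all tested genes, and 29 of 33 positive. None was called in edgeR without or with the block (0% and 0.0143% of genes), and DESeq2 called 2 (0.472%), NDUFA4 and NDUFA9. In each edgeR fit 18 of 33 had an unadjusted p under 0.05, for which the share over all genes is not given here. Without overlap, 23 of 33 were higher at 120 kPa, against 18.2% of tested genes, and 0 were lower, against 15.5%. NDUFA4 changed most, at 1.11 ± 0.34 without the block and 0.80 ± 0.14 with it (edgeR, adjusted p = 0.315 and 0.0995), between libraries at 99.8 to 162 CPM at 120 kPa and 54.9 to 62.2 CPM at 10 kPa.

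NDUFAB1 was at 60.1, 69.5 and 93.8 CPM at 120 kPa and at 41.6 and 43.5 CPM at 10 kPa in siNemp1 cells, a change of 0.81 ± 0.29; its control libraries at 10 kPa were at 37.0 and 38.6 CPM. NDUFB5 was at 38.7, 33.5 and 36.03 CPM at 120 kPa and at 22.3 and 20.1 CPM at 10 kPa in siNemp1 cells, a change of 0.77 ± 0.19; its control libraries at 10 kPa were at 16.9 and 18.7 CPM. NDUFA9 changed by 0.60 ± 0.14 and NDUFA7 by 0.48 ± 0.14. In all 4 genes every siNemp1 library at 120 kPa was above every siNemp1 library at 10 kPa. The distal membrane arm had a median of 0.54, the N module 0.39, the proximal membrane arm 0.19 and the Q module 0.15.

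In control cells the same contrast gave a median of 0.24, against −0.01 over all tested genes, and 28 of 33 positive. The edgeR fit called 0 of 33 (0.0143% of genes), the blocked fit called 0 (0.0214%), and DESeq2 called 0 (0.051%). Without and with the block, 5 and 3 of 33 had an unadjusted p under 0.05, for which the share over all genes is not given here. Without overlap, 15 of 33 were higher at 120 kPa, against 10.3% of tested genes, and 1, NDUFV3, was lower, against 11.9%. NDUFA4 was at 51.6, 66.6 and 129 CPM at 120 kPa and at 46.3 and 49.4 CPM at 10 kPa in control cells, a change of 0.79 ± 0.34. NDUFA13 changed by 0.51 ± 0.21 and NDUFA9, at 60.6, 59.9 and 75.7 CPM at 120 kPa and at 52.1 and 49.8 CPM at 10 kPa, by 0.36 ± 0.14. In all 3 genes control replicate 3 was the highest, and without it the median of the 33 genes was 0.088 and the change of NDUFA4 was 0.30.

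**Figure D4:**
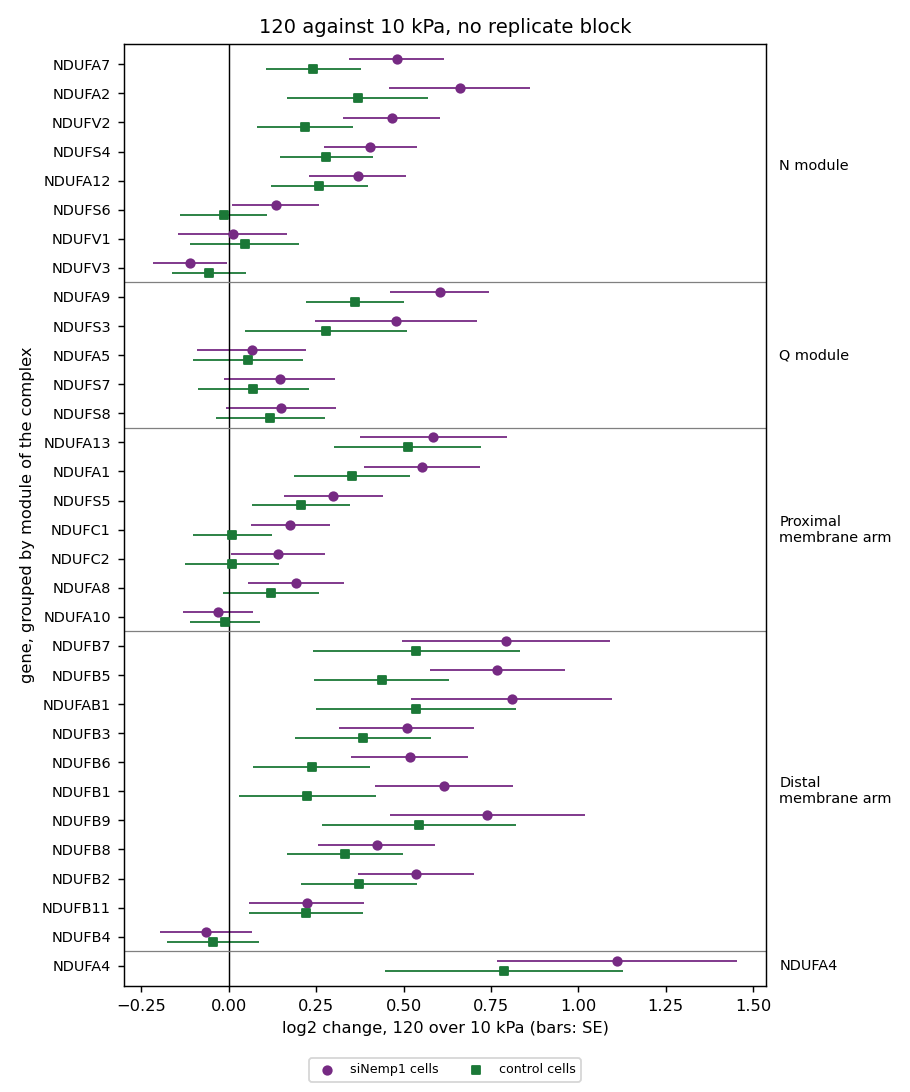
Log2 change of 120 over 10 kPa (horizontal axis, bars show the standard error) for 32 of the 33 genes (vertical axis, by module) in the fit without a block, in siNemp1 cells (purple circles) and in control cells (green squares). No gene was called in either, 29 circles and 28 squares lie above 0, and NDUFA4 is farthest right in both.

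Of the 7 subunits encoded by mitochondrial DNA, the MT-ND genes, 5 fell and 0 rose in siNemp1 cells at 120 kPa with the block, where 2.51% of all tested genes were called lower. They were MT-ND2 at −0.50 ± 0.12, MT-ND4 at −0.61 ± 0.12, MT-ND4L at −0.56 ± 0.14, MT-ND5 at −0.65 ± 0.14 and MT-ND6 at −0.59 ± 0.12 (edgeR, adjusted p between 0.0140 and 0.0331). MT-ND1 at −0.47 ± 0.14 and MT-ND3 at −0.12 ± 0.14 did not pass. Without the block none was called in edgeR and 6 of 7 had an unadjusted p under 0.05. The count of all genes at that p in this fit is given with the first comparison. At 10 kPa 0 of 7 were called in either edgeR fit of all 10 libraries, with 0 at an unadjusted p under 0.05, and the median was −0.17. The fit of the 4 libraries at 10 kPa alone called 4 of 7 lower, MT-ND1, MT-ND2, MT-ND3 and MT-ND4, against 9.19% of its genes.

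Summed, the 33 nuclear genes were at 3500, 3492 and 3818 CPM in siNemp1 cells at 120 kPa, against 2631, 2881 and 3508 CPM in control cells at 120 kPa. The MT-ND genes were at 2540, 1975 and 1801 CPM in siNemp1 cells at 120 kPa, against 4197, 3349 and 2233 CPM in control cells at 120 kPa. The ratio of nuclear to mitochondrial sums was 1.38, 1.77 and 2.12 in siNemp1 cells at 120 kPa, against 0.627, 0.860 and 1.57 in control cells at 120 kPa. It thus overlapped through control replicate 3, which was above siNemp1 replicate 1.

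At 10 kPa the ratio was 0.901 and 0.862 in siNemp1 cells, against 0.731 and 0.743 in control cells, without overlap. The sums there were 2841 and 2974 CPM in siNemp1 cells and 2610 and 2646 CPM in control cells for the nuclear genes. For the MT-ND genes they were 3154 and 3448 CPM in siNemp1 cells and 3570 and 3560 CPM in control cells. All mitochondrial genes together took 0.709 to 1.06% of counts in siNemp1 cells at 120 kPa and 0.913 to 1.73% in control cells at 120 kPa; the part of this share in the nuclear genes' changes was not tested.

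**Figure D5:**
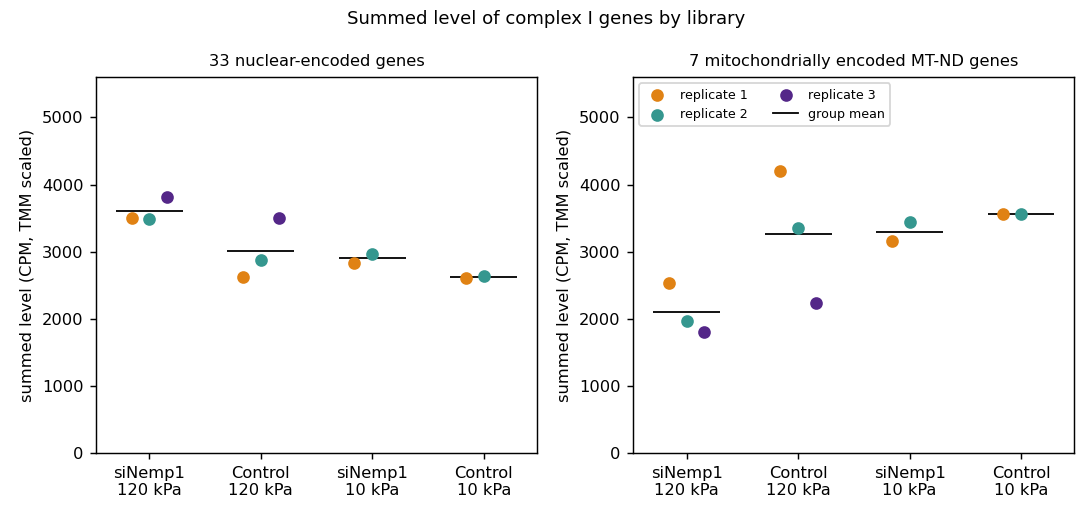
Summed level in CPM (vertical axis) of the 33 nuclear-encoded genes (left panel) and of the 7 MT-ND genes (right panel) in each library, by group (horizontal axis); points are libraries coloured by replicate number and the line is the group mean. At 120 kPa the nuclear sums are 3492 to 3818 CPM in siNemp1 cells and 2631 to 3508 CPM in control cells, while the MT-ND sums are 1801 to 2540 CPM in siNemp1 cells and 2233 to 4197 CPM in control cells.

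Genes that build, regulate or degrade the complex were read in the same fits, where 6.24% of all tested genes were called higher and 2.51% lower at 120 kPa with the block. Of 19 assembly factors 3 rose and 0 fell in siNemp1 cells at 120 kPa with the block, with a list median of 0.19. They were TIMMDC1 at 0.56 ± 0.11, TMEM126B at 0.47 ± 0.12 and COA1 at 0.41 ± 0.10, which act in building the membrane arm. Of 4 complex II genes, the other entry point of electrons, 3 rose (SDHD by 0.79 ± 0.10, SDHB by 0.42 ± 0.11 and SDHC by 0.41 ± 0.11), with a list median of 0.42. Of 12 regulators of mitochondrial gene expression 1 rose, TFB2M, a transcription factor of the mitochondrial genome, at 0.54 ± 0.14, with a list median of 0.21. Of 14 general mitochondrial genes 1 rose, TOMM22 of the outer membrane import channel, at 0.59 ± 0.13, with a list median of 0.22. These last 2 counts, 1 of 12 and 1 of 14, are near the share over all genes. None of the 6 proteases that take part in turnover was called in edgeR, and none had an unadjusted p under 0.05. In the fits of all 10 libraries, each of these lists had 0 calls without the block at 120 kPa and 0 calls with or without it at 10 kPa. The fit of the 4 libraries at 10 kPa alone, which called 8.1% of its genes higher and 9.19% lower, called 4 assembly factors (TIMMDC1, COA1, FOXRED1 and DMAC1), SDHC, SDHD, GABPB1 and CYC1 higher and PPRC1 and CS lower.

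Annotation limits the reading of some genes. On the other strand, 11 of the 33 genes overlap a gene of at least 1 CPM, among them 5 of the 13 called at 120 kPa (NDUFA1, NDUFA2, NDUFA7, NDUFB3 and NDUFB9). IK, which overlaps NDUFA2, was named after its values were seen. It was at 206 ± 18.1 CPM in siNemp1 cells and 230 ± 34.7 CPM in control cells at 120 kPa (SD, n = 3 each), a log2 ratio of means of −0.16. For the other such neighbours of at least 50 CPM besides RPS28, that ratio was 0.20 for HIF1AN (NDUFB8), 0.0038 for CELF1 (NDUFS3) and −0.11 for NAA15 (NDUFC1). On the same strand, NDUFS3 overlaps PTPMT1 (53.1 CPM), NDUFB2 overlaps ADCK2 (6.91 CPM) and NDUFC1 overlaps MGARP (1.36 CPM). NDUFA13, called at 120 kPa with the block, overlaps YJEFN3 (2.01 CPM) on the same strand. The part of these overlaps in the counts was not tested. Reads of NDUFV2 and of its processed pseudogene NDUFV2P1 (1.20 CPM), and of NDUFC2 and the readthrough NDUFC2-KCTD14 (1.07 CPM), may have been split between the rows.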

How the data were processed

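Per the labels' protocols, total RNA of hTERT RPE-1 cells was depleted of ribosomal RNA and sequenced as 10 libraries. Tools listed in the submitters' processing notes are FastQC 0.11.9, Trimmomatic 0.33, Salmon 1.80 and edgeR (no version), with build GRCh38. Not given in the sources used here are the transcript annotation, the summing to genes and strandedness. For 40664 genes the authors deposited expected counts (estimated counts per gene, with decimals), not scaled between libraries, with totals of 17.9 to 23.8 M (M, 1000000). Counts were rounded to whole numbers.

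Genes passing filterByExpr (13990) were scaled by TMM and fitted over all 10 libraries with 1 mean per group in edgeR 4.0.16 (robust quasi-likelihood test, R 4.3.3). Tests were two-sided, with Benjamini-Hochberg adjustment over all tested genes and an adjusted p under 0.05 called. CPM is per 1000000 TMM-scaled counts (member means for the level rule are unscaled). SE is that of the fit. Same-numbered siNemp1 and control libraries were compared across genes by the correlation of their deviations from the group means, which was 0.426, 0.157 and 0.359 at 120 kPa, 0.0171 at 10 kPa and −0.0281 on average between stiffnesses. Numbers come from the sample titles, and the labels do not say what a number stands for. The pairing at 120 kPa was thus read from these same data. The fit with replicate number as a block is given beside results it changed. That block gives same-numbered libraries a shared effect across both stiffnesses, which the correlations at 10 kPa and between stiffnesses do not show. Every blocked result from all 10 libraries rests on this shared effect, those within 120 kPa through the estimate of the spread. The block on the 120 kPa libraries alone does not, and its count is given under the dependence on processing. Replicate 3 exists only at 120 kPa. Replicates of a group differed by more than sampling noise. Chi-square per gene was 6.73 and 2.67 within the siNemp1 and control groups at 10 kPa. Between pairs of replicates at 120 kPa it ran from 22.1 to 97.2. The fits of all 10 libraries share 1 estimate of the spread over both stiffnesses.

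Alternatives were DESeq2 1.42.0, other scalings, other filters, only the groups compared, trends on length and GC taken out of each library (mgcv 1.9.3, 1 GENCODE 29 principal transcript per gene) and each library left out. The fit was tested on simulated data. Values in each library are given for members with the smallest p in each contrast (4 in each siNemp1 contrast, 3 elsewhere, in both fits), the highest and lowest members and NDUFA4; others are given by module with the largest and smallest changes. Members, lists and tests were chosen with earlier results of these data known. Promoter windows are RefSeq's on GRCh38.p14. Of the 33 genes, 1 is not reported here by name or in plots of single genes, and is included in counts, medians and sums.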

Additional observations from a re-analysis of the deposited data

How the results depend on the processing

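No median of the 33 genes changed sign under any alternative run, and 9 log2 changes of NDUFA7 averaged over both stiffnesses lost their call. With the replicate block, 13 of 33 genes were called at 120 kPa and 14 averaged over both stiffnesses, against 0 and 1 without it; in the fits of all 10 libraries the block changed no other count of calls. The block with upper-quartile scaling gave 10 and 13 (8.68% and 10.4% of genes). The block with length and GC trends removed gave 5 and 5 (7.57% and 8.13%), and the block on the 120 kPa libraries alone gave 11 (9.39%). The block with genes kept at 5 CPM or more in 2 or more libraries, chosen after seeing the data, gave 17 and 15 (14.1% and 17.1%). The block without replicate 1 of both groups at 120 kPa gave 7 and 14 (11.2% and 18% of genes). Without replicate 2 it gave 0 and 2 (0.0144% and 4.32%), and without replicate 3 it gave 14 and 17 (5.49% and 11.6%). Without the block, DESeq2 gave 4 at 120 kPa and 5 on average (2.73% and 4.22% of genes), and no filter gave 6 and 4 (2.73% and 2.76%). The 5 CPM filter gave 1 at 120 kPa (1.18%). On average, DESeq2's size factors gave 0 (0% of genes) and upper-quartile scaling gave 0 (0.508%). Leaving out 1 library gave 0 to 15 at 120 kPa and 0 to 11 on average. Both were highest without control replicate 3 at 120 kPa (4.19% and 4.79% of genes).

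Removing length and GC trends put the median log2 change at 120 kPa at 0.18, with or without the block. Leaving out 1 library put it between 0.24 and 0.49, and that of the difference between stiffnesses between 0.056 and 0.28. At 10 kPa only the fits of those 4 libraries differed, with 11 called with or without the block (16.7% and 17.3% of genes). For 120 against 10 kPa in siNemp1 cells, calls were 6 with the block on those libraries (1.68% of genes), 2 with DESeq2 (0.472%) and 8 with no filter (2.25%). In the same contrast the block without replicates 1 and 3 at 120 kPa called 3 and 2 (1.59% and 0.626%). The median there was 0.27 with the block and upper-quartile scaling, 0.26 with length and GC trends removed (0.19 with the block), and 0.23 with the block without replicate 1. In control cells 1 gene was called with no filter (0.675% of genes). The median in control cells was 0.089 with the block on those libraries and 0.072 with the block and trends removed. It was 0.11 with the block without replicate 3, and 0.088 to 0.30 when 1 library was left out. Causes of these shifts were not tested. Only 2 libraries a group at 10 kPa limit the precision there.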
